A study of Mus musculus with 113 samples.

Results

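Mouse 8-cell (8C) embryos were examined after combined knockdown (KD) of 3 nuclear receptor genes, Nr5a2, Nr1h3 and Nr2c2, with the fourth receptor of the experiment, Rarg, left untargeted. The members are the 2 libraries of this KD group and the 2 libraries of its negative control (NC), taken by their titles, so that 4 of the 113 samples of the series, and 4 of the 92 with a deposited FPKM table, make up the comparison. Wild-type embryos from superovulated females received either 5 μM siRNA against each of the 3 genes or 15 μM NC siRNA, so the total siRNA load was matched. Each library was a Smart-seq2 library (full-length cDNA from small amounts of RNA) made from a pool of 5 to 10 embryos, and the methods describe 3 siRNAs per gene. The pools of one group are called replicates in the labels, without a statement that they came from separate females, so the p-values measure the spread between pools. The same experiment held 3 further triple KD groups of 2 libraries each, in which Nr5a2, Nr1h3 or Nr2c2 was the receptor left out. These 3 groups were fitted together with the 4 libraries and are used for comparison. The methods give 5- to 6-week-old C57BL/6N females and PWK/PhJ males as parents. In pooled embryos, fewer cells of a type and less RNA per cell cannot be told apart.

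Nuclear receptors are transcription factors with a zinc-finger DNA-binding domain and a ligand-binding domain. NR5A2 binds DNA as a monomer at an extended half-site and is needed in the mouse embryo before implantation. NR1H3 is the oxysterol receptor LXR alpha, which controls cholesterol efflux and lipogenesis as a heterodimer with RXR. NR2C2 (TR4) is an orphan receptor that binds direct repeats, and RARG is a receptor for retinoic acid. The 8C stage follows major zygotic genome activation. Compaction starts late in this stage, before the first separation of inner cell mass from trophectoderm.

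The 4 libraries had between 8233 and 8879 genes at an FPKM of at least 1, and the spacing of low FPKM values placed their depths between 0.994 and 1.21 times that of NC replicate 1, which is close to even. Absolute depth is unknown, because the tables hold no counts. Libraries with the same replicate number resembled each other, and the ribosomal RNA precursor Rn45s was listed between 20093 and 36376 FPKM in the replicate 1 libraries of the experiment and between 1600 and 7482 in the replicate 2 libraries. Each result was therefore fitted both without a block and with one for the replicate number. The 8C label was compared with stage markers. Pou5f1, Nanog, Tfap2c, Tead4 and Klf5 were present in all 4 libraries, at 3.29 FPKM or more, while the blastocyst marker Sox17 was listed at 0 in all 4 and Cdx2 reached at most 0.154 FPKM. The primitive endoderm markers Gata4 and Pdgfra were present at low levels, Gata4 at 3.05 and 1.71 FPKM in NC and 6.17 and 7.80 in the KD, and Pdgfra between 0.597 and 2.26 in all 4. Of the 2-cell markers, Zscan4c and Zscan4d were at 1.07 FPKM or less in all 4. Zfp352, also a 2-cell marker, was at 0 and 1.92 FPKM in NC and higher in the KD, at 4.97 and 7.48.

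The 3 targeted mRNAs were lower in the KD libraries and the untargeted one was not. Nr5a2 (mm9 chr1:138740161-138857004, minus strand) was at 43.5 and 30.5 FPKM in NC and at 4.35 and 4.66 in the KD. It fell by 2.77 (SE 0.457) on the log2(FPKM + 1) scale, the scale of every log2 difference given here, with a limma adjusted p of 0.0211 with the replicate block and 0.134 without it. Nr1h3 was at 19.8 and 11.7 FPKM in NC and at 0.519 and 1.73 in the KD, a log2 difference of -2.998 (SE 0.604, limma adjusted p = 0.0557 with the block and 0.201 without). Nr2c2 was at 10.0 and 2.98 FPKM in NC and at 0.491 and 0.465 in the KD, a log2 difference of -2.16 (SE 0.548, limma adjusted p = 0.126 with the block and 0.360 without). For each of the 3 genes both KD libraries lay below both NC libraries. Rarg was at 17.6 and 2.18 FPKM in NC and at 23.8 and 4.54 in the KD. Its difference of 0.61 (SE 0.707) did not pass the test (limma adjusted p = 0.802 with the block), the groups overlapped, and the spread within each group was larger than the difference. The replicate 1 library was the higher one in both groups.

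The spared receptor was low wherever its own siRNA had been given. Rarg lay between 1.61 and 3.60 FPKM in the 6 libraries of the other triple KD groups, a range that includes the 2.18 of NC replicate 2. In the KD group Nr5a2 was near its level in the other groups that received Nr5a2 siRNA, 3.96 to 9.42 FPKM. Among the close paralogs, Nr1h2 (LXR beta) was at 51.6 and 16.5 FPKM in NC and at 42.5 and 17.7 in the KD, and Rarb, the retinoic acid receptor beta gene, was at 1.15 and 3.49 in NC and at 2.83 and 2.76 in the KD. Neither passed the test (limma adjusted p with the block 0.955 and 0.896).

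**Figure D1:**
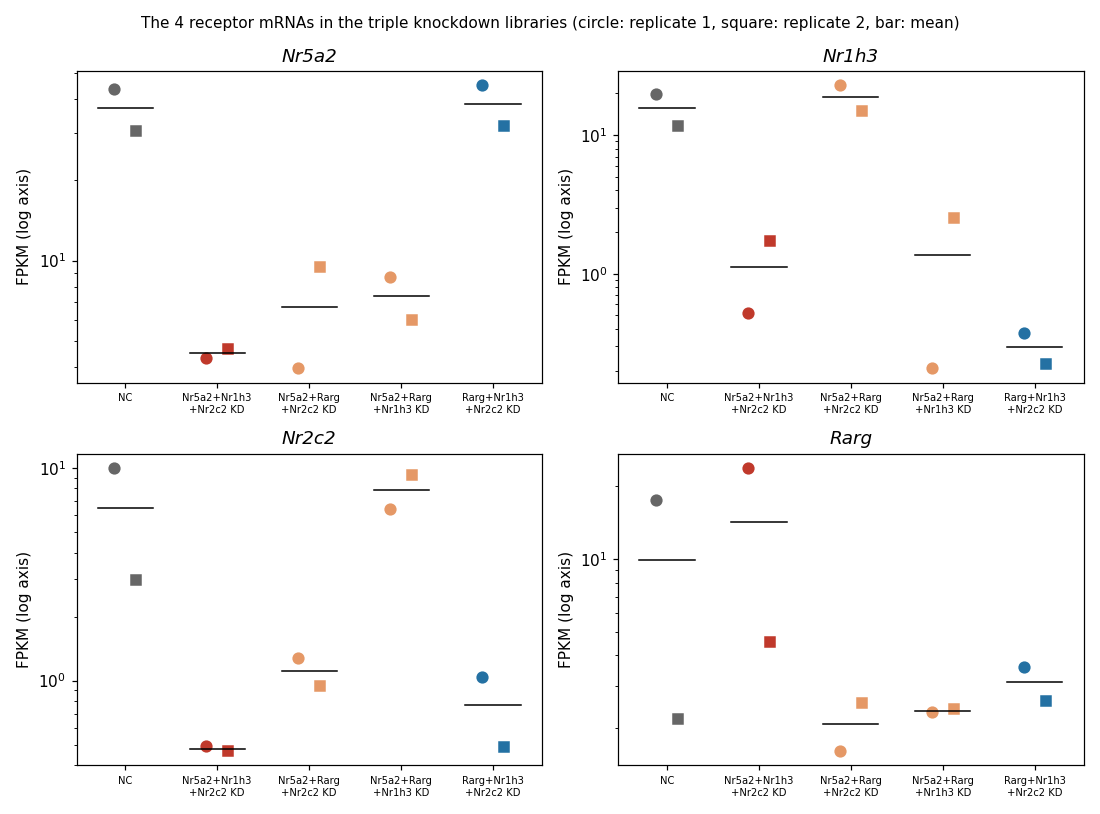
FPKM on a log axis of the 4 receptor mRNAs in the 10 libraries of the experiment, by siRNA mix, with replicate 1 as circles, replicate 2 as squares and the group mean as a bar. Nr5a2, Nr1h3 and Nr2c2 were at 4.66 FPKM or less in the 2 libraries of the Nr5a2+Nr1h3+Nr2c2 KD, and Rarg was at 23.8 and 4.54.

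Against NC, the genes that passed the test were mostly lower in the KD libraries, whereas over all genes tested 4410 were lower and 6146 higher. Of 10626 genes tested, 6 fell at an adjusted p under 0.05 (0.0565% of the genes tested) and 0 rose in the limma fit without the block, where 664 genes (6.25%) had an unadjusted p under 0.05. With the replicate block 33 genes fell (0.311%) and 12 rose (0.113%), the 6 were among the 33, and 1215 genes (11.4%) had an unadjusted p under 0.05. At the limits of the study's methods, an adjusted p under 0.01 and a log2 difference of at least 2, the fit without the block called 0 genes and the fit with it called 7, all lower (0.0659%). These 7 were Rhox9, Psme1, S100a3, Prl3b1, Sdc4, Tdh and Creg1. The median log2 difference over all genes tested was 0.12. The calls with the block rested on all 4 libraries. Leaving any 1 of the 4 out of the blocked fit removed all or nearly all of the calls, and the few calls made were not all among these 45 genes. All 45 kept their direction in each of these fits. Each of these fits has a group of 1 library, which is assumed to vary like the other groups.

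The gene that fell the most was Khdc3, which encodes a member of the subcortical maternal complex, a protein assembly of the oocyte and early embryo. It was at 96.0 and 152 FPKM in NC and at 0.825 and 1.02 in the KD. The log2 difference was -5.99 (SE 0.862, limma adjusted p = 0.0136 with the block and 0.134 without). The next gene was Prl3b1 (mm9 chr13:27334299-27341548, plus strand), which encodes placental lactogen II, a hormone of the prolactin family made in bulk by the placenta. It was at 85.7 and 276 FPKM in NC and at 2.68 and 2.97 in the KD, a log2 difference of -5.34 (SE 0.677, limma adjusted p = 0.00705 with the block and 0.0341 without). Both KD libraries were more than an order of magnitude below both NC libraries for these genes.

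Psme1 (mm9 chr14:56196960-56200366, plus strand) encodes the alpha subunit of the PA28 proteasome activator. It was at 68.8 and 131 FPKM in NC and at 1.68 and 1.74 in the KD, and the log2 difference was -5.15 (SE 0.623, limma adjusted p = 0.00639 with the block). S100a3 (mm9 chr3:90404137-90406624, plus strand), a calcium-binding protein gene, was at 45.3 and 133 FPKM in NC and at 3.41 and 1.15 in the KD. Tdh (mm9 chr14:64111184-64127929, minus strand), threonine dehydrogenase, an enzyme of threonine catabolism that is highly active in mouse embryonic stem cells, was at 51.7 and 40.2 FPKM in NC and at 2.17 and 1.495 in the KD. None of these genes had an NC library within the range of the KD libraries. Sdc4, a heparan sulfate proteoglycan of the cell surface, went from 46.4 and 71.3 to 4.64 and 1.31 FPKM. Creg1, a secreted glycoprotein gene, went from 30.1 and 48.6 to 2.04 and 4.40 FPKM.

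Tdgf1 (mm9 chr9:110842114-110848662, minus strand) encodes CRIPTO, a co-receptor of the Nodal pathway. It was at 46.6 and 97.2 FPKM in NC and at 5.63 and 7.12 in the KD, a fall of 3.22 (SE 0.514) with the block (limma adjusted p = 0.0174, and 0.163 without it). Rhox9, an X-linked homeobox gene, was at 17.5 and 27.0 FPKM in NC and listed at 0 in both KD libraries. Mbl2, the mannose-binding lectin gene, and Cdc42ep5, a CDC42 effector gene, were likewise listed at 0 in both KD libraries, against 11.95 and 18.9 FPKM and 16.1 and 7.07 FPKM in NC. A value of 0 in these tables may be a failed estimate, so no fold is given for the 3 genes. Their limma adjusted p-values with the block were 0.00639, 0.0136 and 0.0143.

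Other genes among the 33 had varied roles. Bhmt, which remethylates homocysteine from betaine, went from 319 and 737 to 95.6 and 155 FPKM. Vnn1, a pantetheinase of coenzyme A turnover, went from 107 and 133 to 22.5 and 22.2 FPKM. Agpat9, an acyltransferase of glycerolipid synthesis, was at 84.7 and 56.7 in NC and at 20.0 and 18.4 in the KD. These 3 enzymes fell without overlap between the groups. Cd9, a tetraspanin of the cell surface, Atg4b, a protease of autophagy, and Pex16, needed for peroxisome assembly, fell by 1.82, 2.14 and 2.07. Crxos, a homeobox gene of early embryos, was at 1267 and 4052 FPKM in NC and at 279 and 760 in the KD. The smallest change among the 33 was that of Rpp21, a ribonuclease P subunit, which fell by 1.58 with the block and whose replicate 2 KD library, at 73.1 FPKM, was near the 85.6 of NC replicate 1.

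Promoter sequences were read for the lower genes to show where the letters of the NR5A2 half-site stood. RefSeq windows on GRCm38.p6, from 250 bases before to 50 after the gene start, were matched by symbol for 25 of the 33 lower genes, 10 of the 12 higher genes and 8062 of the 10626 genes tested. TCAAGGNCA on either strand was in 3 of the 25 (12%) and in 1.33% of the 8062. The shorter CAAGGNCA, which the longer word contains, was in 6 of the 25 (24%), in 1 of the 10 and in 5.89% of the 8062. The 6 were Khdc3, Prl3b1, Pramel5, Crxos, Pex16 and Bhmt. Among genes that fell in the single Nr5a2 KD, read below, the shares were smaller. There the longer word was in 10 of 188 windows (5.32%) and the shorter in 27 (14.4%). In the windows below, which hold the 3 longer matches and the one of Prl3b1, capitals mark the match. It reads in reverse complement in Khdc3 and Prl3b1. A match is a run of letters and not evidence of binding, and repeats were not annotated in the windows.
Khdc3, chr9:73102148-73102447, plus strand: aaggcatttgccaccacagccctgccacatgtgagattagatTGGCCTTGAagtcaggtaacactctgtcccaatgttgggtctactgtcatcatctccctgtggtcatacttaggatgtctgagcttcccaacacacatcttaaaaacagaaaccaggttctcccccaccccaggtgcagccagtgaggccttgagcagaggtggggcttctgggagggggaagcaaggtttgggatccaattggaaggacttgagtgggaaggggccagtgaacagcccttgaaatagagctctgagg
Prl3b1, chr13:27242180-27242479, plus strand: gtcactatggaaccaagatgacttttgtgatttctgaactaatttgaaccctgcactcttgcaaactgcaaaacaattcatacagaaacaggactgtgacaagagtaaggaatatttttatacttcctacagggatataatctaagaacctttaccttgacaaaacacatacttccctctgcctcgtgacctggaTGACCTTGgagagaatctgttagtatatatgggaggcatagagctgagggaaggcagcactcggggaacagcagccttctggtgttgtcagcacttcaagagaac
Pramel5, chr4:144280417-144280716, minus strand: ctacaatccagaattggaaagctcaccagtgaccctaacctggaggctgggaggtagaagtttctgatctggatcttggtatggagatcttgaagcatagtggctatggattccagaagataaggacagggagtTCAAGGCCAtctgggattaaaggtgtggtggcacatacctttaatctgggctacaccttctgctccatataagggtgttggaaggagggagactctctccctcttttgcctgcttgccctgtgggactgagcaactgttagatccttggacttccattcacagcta
Bhmt, chr13:93637709-93638008, minus strand: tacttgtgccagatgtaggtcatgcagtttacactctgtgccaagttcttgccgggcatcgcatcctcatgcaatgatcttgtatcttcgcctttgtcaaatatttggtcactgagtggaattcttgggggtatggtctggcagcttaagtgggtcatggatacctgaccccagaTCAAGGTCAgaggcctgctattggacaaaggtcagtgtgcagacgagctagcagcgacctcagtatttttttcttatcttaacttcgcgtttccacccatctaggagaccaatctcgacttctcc

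Among the 4 genes shown, the first base of the match was at -208 relative to the start in Khdc3, at -55 in Prl3b1, at -116 in Pramel5 and at -75 in Bhmt. Pramel5, a PRAME family gene with close copies in the genome, so that its FPKM may share reads with them, went from 150.5 and 209 FPKM in NC to 25.7 and 27.1 in the KD. Tdgf1, Psme1 and Creg1 fell as far or further and had neither word in their windows.

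The 12 genes that rose with the block included a LIM-domain gene, a glycolytic enzyme and a surface glycoprotein, and 0 of them passed the test without the block. Crip1 (mm9 chr12:114390223-114392088, plus strand), was at 131 and 142 FPKM in NC and at 577 and 1082 in the KD, a log2 difference of 2.53 (SE 0.377, limma adjusted p = 0.0136 with the block and 0.134 without). Ldha (mm9 chr7:54096845-54110997, plus strand), the lactate dehydrogenase subunit that converts pyruvate to lactate, was at 4.49 and 1.25 FPKM in NC and at 109 and 12.7 in the KD. The KD libraries of Ldha were both above NC but differed from each other by more than the NC libraries did. Its log2 difference was 3.47 (SE 0.628, limma adjusted p = 0.0392 with the block).

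Cd24a, a glycoprotein anchored in the outer membrane, rose from 20.5 and 21.9 to 81.6 and 113 FPKM. Plekhb2, a pleckstrin-homology protein gene, was at 2.65 and 3.51 FPKM in NC and at 22.0 and 28.6 in the KD. Gdpd1, a phosphodiesterase of lipid metabolism, was at 2.02 and 4.50 in NC and at 16.5 and 43.1 in the KD. The 2 groups did not overlap for any of the 3. Atp6v0c, a subunit of the vacuolar proton pump, was at 18.3 and 24.0 FPKM in NC and at 118 and 74.5 in the KD. Myl4, a myosin light chain gene, was listed at 0 in both NC libraries and was at 17.5 and 30.2 FPKM in the KD. Oaz1-ps is a processed pseudogene that can share reads with its parent gene, and its value is uncertain. Eif2s3y and Uba1y are Y-linked and are given with the sex-linked genes.

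Among called genes with a RefSeq start, 3 pairs lay within 50 kb of each other on GRCm38.p6. Psme1 and Emc9, an ER membrane complex gene, had starts 6.76 kb apart on chromosome 14 and both fell. Crip1 and Crip2, both LIM-domain genes, had starts 11.4 kb apart on chromosome 12 and moved in opposite directions, since Crip2 went from 141 and 304 to 35.8 and 22.4 FPKM. Sdc4 and Sys1, a Golgi trafficking gene, had starts 17.8 kb apart on chromosome 2, and Sys1 rose from 40.4 and 101 to 106 and 277 FPKM while Sdc4 fell.

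The calls were then followed across the triple KD groups. Aside from Nr5a2 itself, 32 genes fell with the block. Their median log2 difference from NC was -2.97 in the Nr5a2+Nr1h3+Nr2c2 KD, where they were chosen, -2.24 in the Nr5a2+Rarg+Nr2c2 KD, -2.23 in the Nr5a2+Rarg+Nr1h3 KD and -0.07 in the Rarg+Nr1h3+Nr2c2 KD, which received no Nr5a2 siRNA. All 4 differences share the NC libraries, and the first is the largest partly because the genes were chosen on it. The calls did not use the values of the other triple KD groups as a contrast, but the shared fit took its spread from all 10 libraries. For 28 of the 32 genes the 4 libraries with Nr5a2 and Rarg siRNA all lay below both libraries of the Rarg+Nr1h3+Nr2c2 KD. That order was shown by 11.3% of all genes tested, which were not matched to the 32 for spread or level. Khdc3 was at 91.8 and 149 FPKM in the Rarg+Nr1h3+Nr2c2 KD, close to NC, and Tdgf1 at 49.5 and 80.9. Of the 12 higher genes, 8 had the mirrored order, against 8.54% of all genes tested, and Atp6v0c, Sys1, Myl4 and Eif2s3y did not. The median log2 difference of the 12 from NC was 2.74 in the Nr5a2+Nr1h3+Nr2c2 KD. In the group without Nr5a2 siRNA it was 0.85, a difference from the same NC libraries on which the genes were chosen. There 6 of the 12 lay apart from NC. The difference was below 0 for Cd24a, Crip1 and Gdpd1 and above 0 for the others. It was largest for the Y-linked Eif2s3y, at 3.51. Crip1 was at 137 and 72.3 FPKM in that group.

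The 4 lower genes outside that order were Rhox9, Ccdc84, Ndufs6 and Rpp21. Rhox9 was also low without Nr5a2 siRNA, at 4.79 and 2.34 FPKM in the Rarg+Nr1h3+Nr2c2 KD. Ndufs6, a subunit of mitochondrial complex I, and Ccdc84, a coiled-coil protein gene, were lower in every library with Nr2c2 siRNA than in those without it. Ndufs6 (mm9 chr13:73457286-73465990, minus strand) was at 238 and 470 FPKM in NC and at 336 and 397 in the triple KD that spared Nr2c2. In the 3 groups that received Nr2c2 siRNA its 6 libraries lay between 77.9 and 150 FPKM, below all 4 of the others. Ccdc84 (mm9 chr9:44218249-44226090, minus strand) was at 13.03 and 13.2 FPKM in NC, at 6.09 and 5.81 in the group that spared Nr2c2 and between 0.275 and 2.42 in the 6 libraries with Nr2c2 siRNA. It was thus below NC where Nr2c2 was spared as well. In a separate single Nr5a2 KD experiment it was at 3.05 and 4.87 FPKM, against 13.6 and 6.76 in the NC of that experiment.

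**Figure D2:**
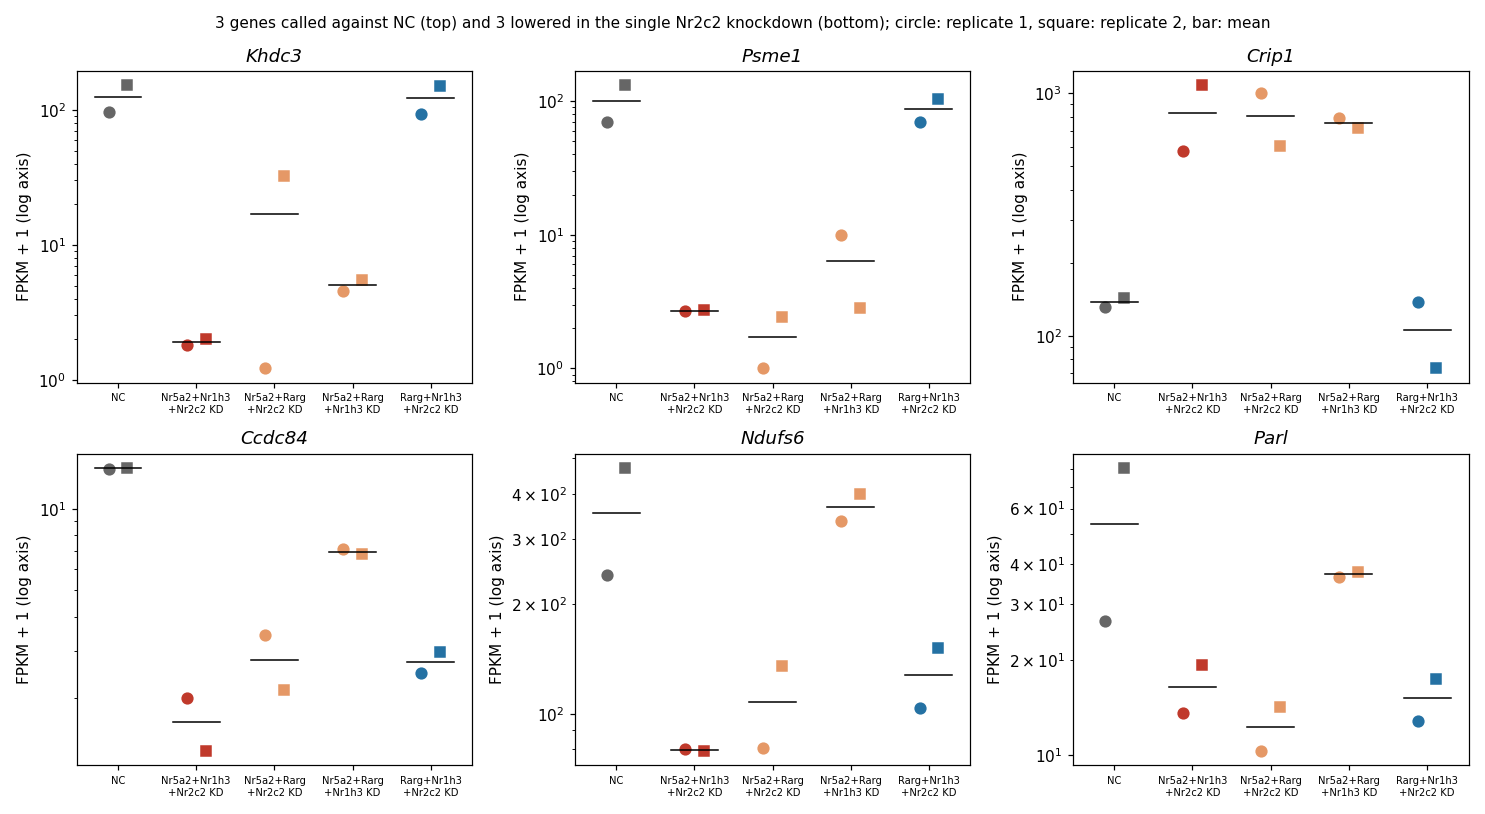
FPKM plus 1 on a log axis of 6 genes in the 10 libraries of the experiment, by siRNA mix, with replicate 1 as circles, replicate 2 as squares and the group mean as a bar. Khdc3, Psme1 and Crip1 in the Rarg+Nr1h3+Nr2c2 KD lay near NC, whereas Ccdc84, Ndufs6 and Parl were low there and higher in the Nr5a2+Rarg+Nr1h3 KD.

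Single KD libraries from another experiment, with their own NC libraries, gave a reading that shares no library with the calls. All 32 lower genes other than Nr5a2 were also lower in the single Nr5a2 KD, with a median log2 difference of -2.85. Of these, 25 passed an adjusted p under 0.05 there (2.39% of all genes tested in that fit fell), and 29 were at least 2-fold lower with no overlap (13.6% of all genes tested there). Khdc3 was at 320 and 264 FPKM in that NC and at 2.14 and 2.67 in the single Nr5a2 KD. The smallest falls of the 32 there were -0.30 for Ndufs6 and -0.52 for Rhox9. Rhox9 was near the floor, at 4.50 and 0 FPKM in that NC and 1.67 and 0 in the single KD, so its direction there is uncertain. In the 8C embryos with all 4 receptors knocked down, again with their own NC libraries, all 32 were lower, with a median of -2.44, and 29 were at least 2-fold lower with no overlap (6.76% of all genes tested there). None of the 32 passed an adjusted p under 0.05 in that fit, which also held the 4-cell libraries of the 4KD experiment. In the single Nr2c2 KD 3 of the 32 were at least 2-fold lower with no overlap, against 3.68% of all genes tested there.

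The 12 higher genes were also higher in the single Nr5a2 KD, with a median log2 difference of 1.56, and 3 of them, Plekhb2, Gdpd1 and 1700017B05Rik, passed the test there (0.354% of all genes tested rose), while 7 were at least 2-fold higher with no overlap (4.56%). For 4 of the 12 the difference there was close to 0, at 0.038 for Uba1y, 0.040 for Eif2s3y, 0.054 for Atp6v0c and 0.065 for Oaz1-ps. In the 8C 4KD embryos 10 of the 11 that could be tested were higher, with a median of 1.97, and 6 were at least 2-fold higher with no overlap (5.52% of all genes tested there). Atp6v0c was the exception, at 194 and 83.3 FPKM in that NC and at 118 and 89.8 in the 4KD. It was also high without Nr5a2 siRNA, at 107 and 63.3 FPKM in the Rarg+Nr1h3+Nr2c2 KD.

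**Figure D3:**
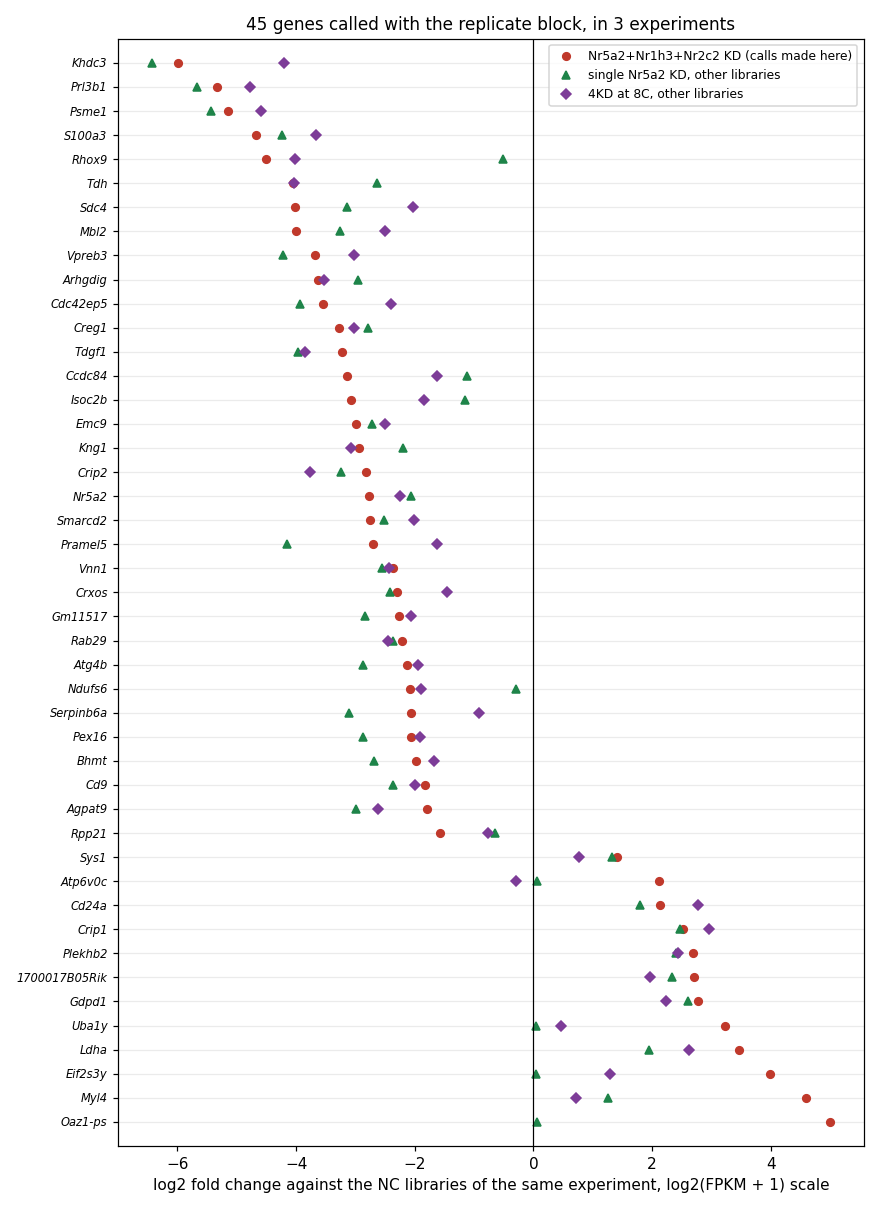
Log2 difference from NC, on the log2(FPKM + 1) scale, of the 45 genes called with the replicate block, in the Nr5a2+Nr1h3+Nr2c2 KD (circles), the single Nr5a2 KD (triangles) and the 8C 4KD (diamonds), each against its own NC libraries. The circles chose the genes. The triangles lay on the same side of 0 for all 32 lower genes other than Nr5a2 and all 12 higher genes. Those of Uba1y, Eif2s3y, Atp6v0c and Oaz1-ps were close to 0. Among the lower genes those of Ndufs6 (-0.30) and Rhox9 (-0.52) were nearest to it.

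The reverse reading used genes chosen in the single Nr5a2 KD. Of 243 genes that fell there, 240 could be tested in the triple KD, and 233 of these were lower, with a median log2 difference of -1.23. No overlap with at least a 2-fold lower level was seen for 131 of the 240 (54.6%), against 4.79% of all genes tested. Of 36 genes that rose in the single KD, 35 were higher in the triple KD, with a median of 1.38, and 24 (66.7%) were at least 2-fold higher with no overlap, against 6.13% of all genes tested. The transcription factor gene Klf5 was one of the 243. It was at 40.1 and 30.2 FPKM in NC and at 20.2 and 14.4 in the triple KD, where its difference of -0.99 did not pass the test (limma adjusted p = 0.323 with the block).

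**Figure D4:**
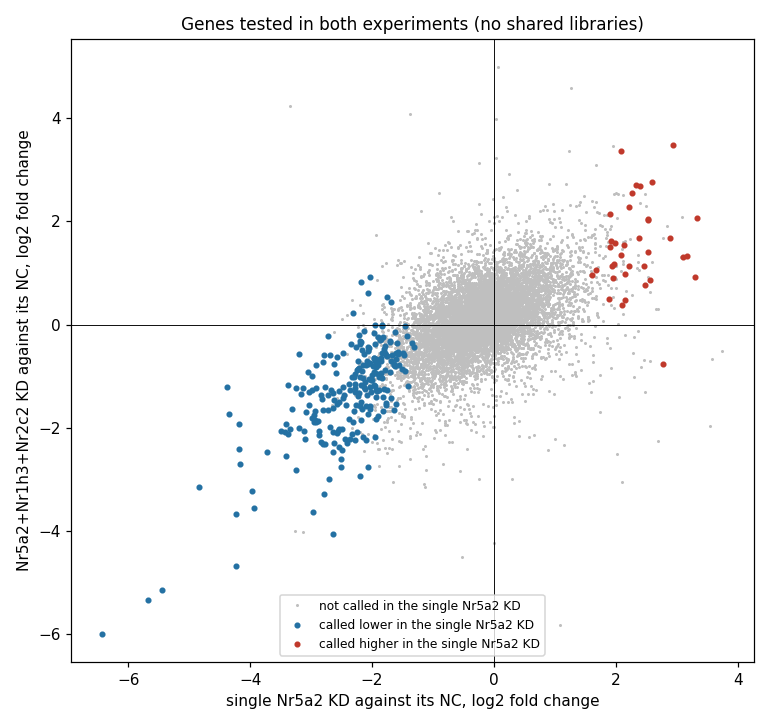
Log2 difference from NC of each gene tested in both experiments, with the single Nr5a2 KD on the horizontal axis and the Nr5a2+Nr1h3+Nr2c2 KD on the vertical axis. Genes called lower (blue) in the single KD lay below 0 on the vertical axis in 233 of 240 cases, and genes called higher (red) lay above 0 in 35 of 36. The Pearson r across 9366 genes tested in both experiments and in the 4KD was 0.553, a description across genes, which are not independent replicates.

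The Nr2c2 siRNA could be read in the same way. The single Nr2c2 KD lowered 8 genes at an adjusted p under 0.05 (0.0787% of the genes tested there). These were Nr2c2, Ccdc84, Ndufs6, Parl, Slirp, Morn2, Sdr39u1 and Scarna6. Scarna6 was at 30.4 and 11.02 FPKM in the NC libraries of that experiment and listed at 0 in the other libraries, triple KD and its NC included, so it could not be read here. The other 7 were all lower in the triple KD, with a median log2 difference of -2.08, and 6 of them, Nr2c2 itself included, did not overlap with NC and were at least 2-fold lower, against 4.79% of all genes tested.

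Parl, a rhomboid protease of the inner membrane, was at 25.6 and 79.8 FPKM in NC and at 12.6 and 18.3 in the KD, and at 35.4 and 36.9 in the triple KD that spared Nr2c2. Slirp, which stabilizes mitochondrial mRNA, was at 256 and 502 FPKM in NC, at 119 and 234 in the KD and at 249 and 611 in the group that spared Nr2c2. The KD libraries were below both groups for Parl and for Slirp. Neither gene passed the test against NC (limma adjusted p = 0.142 with the block for both), so only Ndufs6 and Ccdc84 of the 7 fell by the test. Sdr39u1, at 12.6 and 4.21 FPKM in the KD and 7.10 and 22.4 in NC, overlapped. A perfect DR1 element, a direct repeat of AGGTCA spaced by 1 base, was searched on both strands with no mismatch allowed. It was in 0 of the 7 promoter windows found for genes lowered in the single Nr2c2 KD, and in 0.0744% of the 8062. With so rare a word a count of 0 among 7 was nearly certain, so it does not show whether looser DR1 sites are present.

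The Nr5a2+Nr1h3+Nr2c2 KD was also compared with the other triple KD groups. Against the mean of the 2 groups that combined Nr5a2 and Rarg siRNA, which differ from it in Rarg and in either Nr1h3 or Nr2c2, 0 genes passed an adjusted p under 0.05 in the limma fit without or with the block. An unadjusted p under 0.05 was reached by 153 and 283 genes (1.44% and 2.66%). Read against the group that spared Nr2c2 alone, or against the one that spared Nr1h3 alone, the limma count was 0 as well in both fits. Against the group that spared Nr2c2, 184 genes (1.73%) had an unadjusted p under 0.05 without the block and 332 (3.12%) with it, and against the group that spared Nr1h3 the counts were 177 (1.67%) and 339 (3.19%). Against the group that spared Nr2c2, Ndufs6 had a log2 difference of -2.20 (SE 0.298, limma adjusted p = 0.0811 with the block). A missing call does not show that these groups were alike.

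Against the Rarg+Nr1h3+Nr2c2 KD, which differs in having Rarg and not Nr5a2 siRNA, 4 genes were lower without the block (0.0376%) and 0 higher, and with the block 68 were lower (0.640%) and 12 higher (0.113%). The 4 were Cdc42ep5, S100a3, Creg1 and Psme1. Their count was 0 with median-ratio scaling, and 0 without KD replicate 1, KD replicate 2 or replicate 2 of the Rarg+Nr1h3+Nr2c2 KD and 1 without its replicate 1. The blocked count of 80 was 0 when any 1 of these 4 libraries was left out. At the limits of the study's methods the blocked fit called 7 lower (0.0659%) and 2 higher (0.0188%) genes, and the fit without the block called 0. Cldn4, a tight junction claudin gene, was at 41.4 and 37.8 FPKM in the KD and at 209 and 137 in the Rarg+Nr1h3+Nr2c2 KD, a log2 difference of -2.07 (limma adjusted p = 0.0375 with the block). Mpc1, a subunit of the mitochondrial pyruvate carrier, was at 33.9 and 47.9 FPKM in the KD and at 164 and 198 there, a log2 difference of -2.13 (limma adjusted p = 0.0418 with the block). Among the higher genes, Rdh12, a retinol dehydrogenase gene, was at 12.9 and 33.0 FPKM in the KD and at 0 and 1.70 there. This comparison shares the KD libraries with the comparison against NC, so the 2 are not independent.

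Genes activated at the 4-cell or 8-cell stage in the study's own list were read next. The list was chosen by the study from embryos of these stages. All 60 members in the tables were tested. The median log2 difference was -0.27, against 0.12 over all genes tested, and was -0.54 for members with a mean of at least 5 FPKM and -0.49 without NC replicate 1. In the KD libraries 40 members were lower and 20 higher. With no overlap, 17 were at least 2-fold lower and 3 at least 2-fold higher, against 4.79% and 6.13% of all genes tested. The members that fell by the test were Prl3b1 and S100a3. In the single Nr5a2 KD the median of the same list was -0.99, and in the 8C 4KD it was -0.39.

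Among members of that list that did not pass the test, Atg16l2, an autophagy gene, was at 10.3 and 7.29 FPKM in NC and at 1.38 and 0.634 in the KD, with no overlap between groups (limma adjusted p = 0.105 with the block). The 527 tested genes of the study's late 2-cell list had a median of 0.22, with 4 called lower and 1 called higher with the block, against 0.311% and 0.113% of all genes tested. The 35 tested genes of its early 2-cell list had a median of 0.44. Of these 35, 7 were at least 2-fold higher and 1 at least 2-fold lower with no overlap, against 6.13% and 4.79% of all genes tested.

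**Figure D5:**
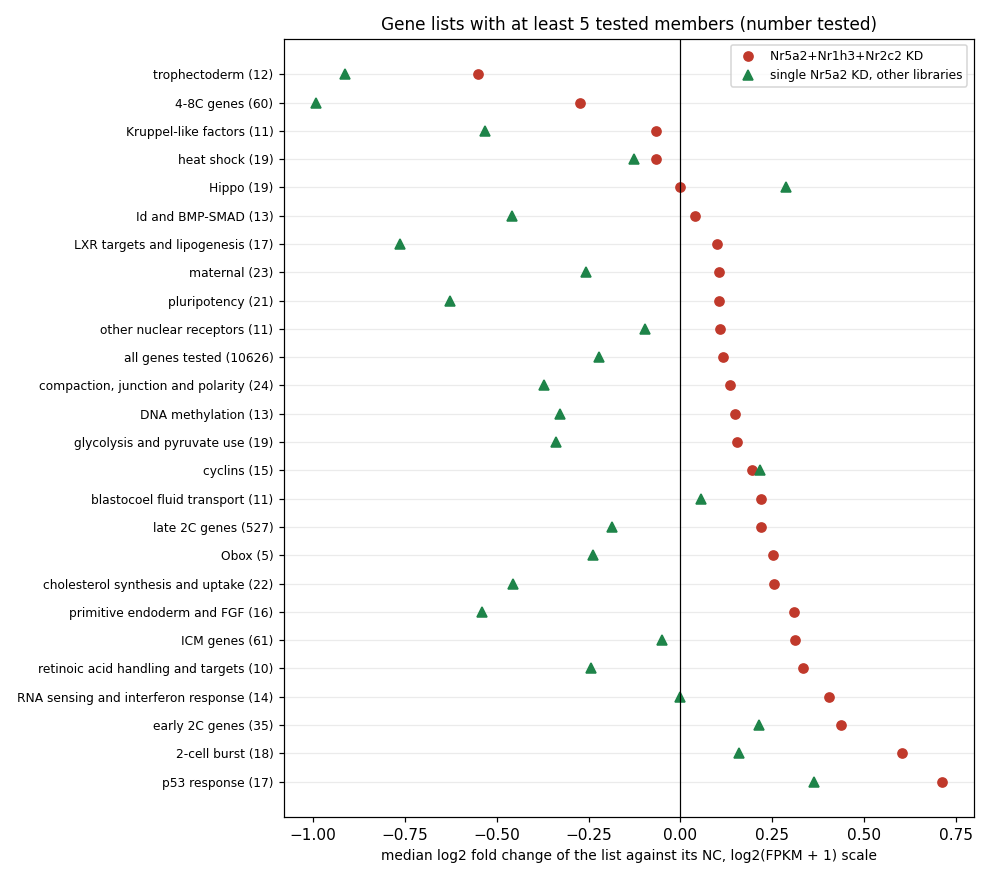
Median log2 difference from NC, on the log2(FPKM + 1) scale, of each gene list with at least 5 tested members, in the Nr5a2+Nr1h3+Nr2c2 KD (circles) and the single Nr5a2 KD (triangles), with the number tested in the triple KD in brackets. The medians for the 4-8C genes were -0.27 and -0.99, and those for all genes tested were 0.12 and -0.22.

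Of 21 pluripotency genes tested, Tdgf1 fell with the block and 0 rose. The median was 0.11, with 9 members lower and 12 higher, and 3 were at least 2-fold lower and 1 at least 2-fold higher with no overlap, against 4.79% and 6.13% of all genes tested. Nanog was at 15.7 and 13.7 FPKM in NC and at 3.29 and 9.34 in the KD, a log2 difference of -1.23 (limma adjusted p = 0.392 with the block). Pou5f1 was at 71.2 and 24.3 FPKM in NC and at 129 and 19.1 in the KD, so that its groups overlapped. Dppa5a, a small RNA-binding protein gene of pluripotent cells, was at 1559 and 2676 FPKM in NC and at 633 and 1768 in the KD.

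Trophectoderm genes had a median of -0.55 over 12 tested. Of these 0 were called, against 0.311% (lower) and 0.113% (higher) of all genes tested with the block. Krt8, the keratin of the trophectoderm, was at 2.82 and 2.42 FPKM in NC and at 22.6 and 9.50 in the KD, a log2 difference of 2.12 that narrowly missed the test (limma adjusted p = 0.0530 with the block). Hand1, a transcription factor gene of trophoblast giant cells, was at 84.0 and 13.1 FPKM in NC and at 11.3 and 8.43 in the KD. Tead4, which activates the trophectoderm program, was at 55.6 and 32.4 in NC and at 39.6 and 22.7 in the KD. Tfap2c and Gata3, regulators of the same lineage, had log2 differences of -0.19 and 0.34, and their groups overlapped. Without overlap, 3 members were at least 2-fold lower and 1 was at least 2-fold higher, against 4.79% and 6.13% of all genes tested.

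Genes of primitive endoderm and FGF signalling had a median of 0.31 over 16 tested. Of these 0 were called, against 0.311% (lower) and 0.113% (higher) of all genes tested with the block. Dusp6, a feedback phosphatase of ERK signalling, was at 1.60 and 3.93 FPKM in NC and at 18.0 and 11.3 in the KD (limma adjusted p = 0.109 with the block). Gata6, Fgfr1 and Fgfr2 had log2 differences of -0.35, -0.61 and -0.27. In the Id and BMP-SMAD list, Id3, an inhibitor of helix-loop-helix factors, was at 375 and 523 FPKM in NC and at 102 and 361 in the KD (limma adjusted p = 0.445 with the block), and in the single Nr5a2 KD its log2 difference was -4.38. Satb1, a chromatin organizer, and Esrrb, an orphan nuclear receptor, had log2 differences of -1.02 and 0.11, and that of Satb1 lay between -1.92 and -0.12 when 1 library was left out.

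The lists read for Nr1h3 and for the spared Rarg held 0 called genes. Over all genes tested 0.311% were called lower and 0.113% higher with the block. With such shares 0 calls in lists of this size is no result about these pathways. LXR target and lipogenesis genes, which NR1H3 controls in liver, had a median of 0.10 over 17 tested, 8 lower and 9 higher. Apoc1 and Elovl6, an apolipoprotein gene and a fatty acid elongase gene, were at 94.8 and 103 FPKM and at 51.9 and 29.8 FPKM in NC, and at 36.5 and 77.8 FPKM and 18.4 and 25.5 FPKM in the KD. Cholesterol synthesis genes had a median of 0.26 over 22 tested, with 4 at least 2-fold lower and 2 at least 2-fold higher with no overlap, against 4.79% and 6.13% of all genes tested. One of the 4 was Fdft1, squalene synthase, at 215 and 222 FPKM in NC and at 69.0 and 97.6 in the KD (limma adjusted p = 0.105 with the block). Retinoic acid genes, the pathway of the spared receptor, had a median of 0.33 over 10 tested, 3 lower and 7 higher.

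Metabolic and junction genes held single members with large differences. In the glycolysis and pyruvate list Ldha rose and 0 fell. Mpc1 was at 113 and 285 FPKM in NC and at 33.9 and 47.9 in the KD (limma adjusted p = 0.0530 with the block). In the compaction, junction and polarity list 5 of 24 were at least 2-fold lower and 1 at least 2-fold higher with no overlap. Over all genes tested these shares were 4.79% and 6.13%. Of the 24, 0 were called, against 0.311% (lower) and 0.113% (higher) of all genes tested with the block. Cldn4 was at 184 and 105 FPKM in NC and at 41.4 and 37.8 in the KD, and Ocln, the tight junction gene occludin, was at 12.9 and 14.6 in NC and at 4.46 and 5.85 in the KD. Pard6b, a polarity gene of the apical domain, was at 9.05 and 2.36 in NC and at 1.11 and 1.37 in the KD.

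The p53 response list had the highest median of the lists with at least 5 tested members, 0.71 over 17 tested. In it 12 were higher, 5 lower and 0 called, against 0.311% (lower) and 0.113% (higher) of all genes tested called with the block. Mdm2, the ubiquitin ligase of p53, was at 19.8 and 20.5 FPKM in NC and at 46.3 and 53.7 in the KD (limma adjusted p = 0.126 with the block). Cdkn1a, the cell cycle inhibitor p21, was at 175 and 182 in NC and at 76.8 and 152 in the KD, the opposite side. RNA sensing and interferon genes had a median of 0.41 over 14 tested, 2-cell burst genes 0.60 over 18, maternal genes 0.11 over 23 and heat shock genes -0.07 over 19. Among the 2-cell burst genes, 5 were at least 2-fold higher and 1 at least 2-fold lower with no overlap, against 6.13% and 4.79% of all genes tested. In the maternal list Khdc3 was the gene that fell and 0 rose. The remaining lists were other nuclear receptors with a median of 0.11 over 11, Hippo genes with 0.00 over 19, Kruppel-like factors with -0.07 over 11, Id and BMP-SMAD genes with 0.04 over 13, Obox genes with 0.25 over 5, blastocoel fluid transport genes with 0.22 over 11, DNA methylation genes with 0.15 over 13 and cyclins with 0.20 over 15. The study's inner cell mass list had a median of 0.31 over 61. None of the members of these lists was called, against the same 0.311% and 0.113% of all genes tested.

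Markers of other cells and of sex were measured beside these results. Of 14 cumulus and granulosa markers, 10 were listed at 0 in all 4 libraries and 13 were under 1 FPKM, and the summed level lay between 4.48 and 15.1 FPKM in NC and between 3.95 and 11.5 in the KD. Amhr2 made up most of it. Of 7 sperm markers 5 were listed at 0 in all 4, and the sum was 9.93 and 5.05 FPKM in NC and 0 and 1.51 in the KD. Blood markers differed, with sums of 24.6 and 22.1 FPKM in NC and 112 and 164 in the KD. Nearly all of this came from Hba-a1 and Hba-a2, near-identical alpha globin genes between which reads can be split, and Hbb-b1 was at 0 in all 4. Their part in the results was not tested.

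Sex-linked genes also differed between the libraries. Eif2s3y, a Y-linked translation factor gene, was at 0 and 3.77 FPKM in NC and at 42.3 and 26.4 in the KD, and Uba1y, also Y-linked, was at 0 and 0.171 in NC and at 13.9 and 5.94 in the KD. Xist, the RNA that silences an X chromosome, was at 43.6 and 2.58 in NC and at 0.0728 and 4.07 in the KD, so that its groups overlapped. Without the 2 Y-linked genes among them the blocked calls were 33 lower and 10 higher. Rhox9 is X-linked and was low in the KD, whose pools had the higher Y-linked levels, and the part of these values in its level was not tested.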

How the data were processed

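The deposited tables give 1 FPKM value (fragments scaled to transcript length and to the mapped fragments of the library) per gene symbol and library, which the authors made by mapping reads to mm9 with TopHat and summing with Cufflinks over the UCSC refFlat genes. They hold no counts, so depth is unknown and no count test was used. The 10 libraries of the triple KD experiment were fitted together on log2(FPKM + 1) in R 4.3.3 with limma 3.58.1 (trended empirical Bayes, Benjamini-Hochberg adjustment), keeping the 10626 of 24006 genes whose mean reached 1 FPKM in any of the 5 groups. The main fit had no block. The labels give the groups the same replicate numbers, and the numbers pair the samples: deviations from the group means correlated in all 10 pairs of groups (r from 0.278 to 0.513). A blocked fit, with the number as a factor, was therefore run beside it, and its adjusted p is named as such. With 2 against 2 libraries an exact permutation test cannot go below p = 0.333, so none was run. The single KD and 4KD experiments were fitted apart, each with its own NC. The 4KD fit held 8 libraries, the NC and 4KD groups of the 4-cell and 8C stages, which shared the spread and the gene filter.

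The test was checked on simulated data made from the means and spread of these libraries, with 100 genes lowered at each of 2 sizes. For KD against NC a log2 difference of 2 was recovered for 33% of the lowered genes without the block and 98% with it. The lowered genes were drawn only from genes of high FPKM. These shares therefore do not give the recovery for genes of low FPKM or over all genes tested. The share of called genes that were false was 0% without the block and 7.48% with it, above the 5% aimed at. Genes named were the siRNA targets and paralogs, genes the study names at 8C, at most 4 per list by lowest blocked p, at most 15 lower and 10 higher called genes by size, and at most 5 in each direction per other contrast. Other called genes, the genes lowered in the single Nr2c2 KD, stage markers and the Y-linked genes and Xist were named after their values were seen. The members and the gene lists were chosen with earlier results of these data known. Alternatives covered the pseudocount, the filter, scaling, the variance trend, the block, the groups in the fit and leaving out each library. Gene positions are from GENCODE on mm9 and promoters from RefSeq on GRCm38.p6. The remaining tables were not used here.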

Additional observations from a re-analysis of the deposited data

How the results depend on the processing

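The count of genes called against NC, 6 in the fit without a block, was 0 with a pseudocount of 0.1, 3 (1 lower, 2 higher) with no filter on low values, 11 with quantile normalization, 11 (10 lower, 1 higher) without a variance trend, 2 (1 lower, 1 higher) with only the groups compared, and 0 to 1 when 1 library was left out. With the replicate block, which pairs libraries by number, it was 45 (33 lower, 12 higher), and 52 (40 lower, 12 higher) with median-ratio scaling as well. At the limits of the methods the count of 0 became 7 in both blocked fits and 0 to 1 with 1 library left out. Alternatives to the blocked fit, chosen after seeing the data, gave 40 calls with quantile normalization, 25 (18 lower, 7 higher) with a pseudocount of 0.1, 43 without the Y-linked genes and 0 to 3 with 1 library left out. Nr5a2 passed the test with the block (-2.77, adjusted p = 0.0211) and with the block and median-ratio scaling (-2.86, 0.0204), and Nr1h3 in the latter (-3.09, 0.0424). The median of the 4-8C list, -0.27, was -0.54 with a mean FPKM of at least 5, -0.37 with median-ratio scaling with or without the block, -0.40 with quantile normalization and -0.49 to -0.34 with 1 library left out. Against the triple KD groups with Rarg siRNA the 0 calls became 2, both higher, with no filter, and 0 to 1 with 1 library left out, also at the limits of the methods. Against the Rarg+Nr1h3+Nr2c2 KD the 4 calls became 1 with a pseudocount of 0.1, 0 with median-ratio scaling, 80 (68 lower, 12 higher) with the block, 57 (47 lower, 10 higher) with the block and median-ratio scaling and 0 to 1 with 1 library left out. At the limits of the methods the 0 became 9 and 7 in the 2 blocked fits. The blocked 80 became 0 with any 1 library left out, an alternative chosen after seeing the data. The causes were not tested.

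Leaving out 1 library turned the direction of 22 named genes, none of them called, and took Nppb to 0. Their log2 differences ranged from -0.67 to 1.88 for Rarg, -1.09 to 1.60 for Pou5f1, -0.89 to 0.19 for Gata6, -0.24 to 0.92 for Gata3, -0.88 to 0.70 for Nr1h2, -1.36 to 0.82 for Fgfr2, -0.91 to 0.54 for Tfap2c, -0.46 to 0.67 for Esrrb, -0.24 to 0.82 for Rarb, -1.06 to 0.49 for Amhr2 and -1.48 to 0.054 for Sdr39u1. They ranged from -1.87 to 2.29 for Nr1d1, -0.59 to 0.81 for Nr1d2, -1.26 to 0.51 for Id1, -0.0075 to 0.99 for Rdh10, -0.92 to 0.15 for Trim28, -0.27 to 0.77 for Obox6, -0.57 to 1.92 for Fxyd4, -1.15 to 1.37 for Dppa3, -0.81 to 4.19 for Gm4850, -3.75 to 0 for Nppb, -0.12 to 0.88 for Ncoa1 and -0.23 to 1.32 for Tet1. Without a change of direction, Nanog ranged from -1.87 to -0.60, Fgfr1 from -1.13 to -0.09, Id3 from -2.11 to -0.29 and Tead4 from -0.88 to -0.10. Quantile normalization turned Esrrb to -0.054 and Nr1d2 to -0.049. Without stated depth, low FPKM values carry a counting error that cannot be given.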

Other observations

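A pair of called genes had levels that the comparisons above did not describe. Vpreb3, a surrogate light chain gene of B cell precursors, was at 56.0 and 83.0 FPKM in NC and at 1.85 and 9.32 in the KD. Smarcd2, a subunit of SWI/SNF chromatin remodelling complexes, was at 17.9 and 7.71 FPKM in NC and at 0.686 and 1.13 in the KD. Both fell with the block and had no overlap between the groups.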
